A study of Homo sapiens with 9 samples.

Results

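The 37 genes of the human mitochondrial genome, taken as every gene row whose symbol starts with MT-, were described in LAPC4 cells across 9 RNA sequencing libraries. They are 13 mRNAs, 2 rRNAs and 22 tRNAs among 60325 gene rows. LAPC4 is an androgen-responsive human prostate epithelial cancer line. The series asks about UGT2B28, an enzyme that conjugates steroids to glucuronic acid, and compares 3 groups of 3 libraries at day 30. Rescue cells overexpressed UGT2B28 on the knockdown background. Knockdown cells carried the knockdown construct alone. Control cells are labelled NT with the genotype Control. Puromycin at 3 µg/mL selected for the knockdown and G418 at 1 mg/mL for the rescue; no drug is named for control cells, so selection and construct cannot be told apart. The titles of both engineered groups name a single construct, KD4, and nothing says that the 3 libraries of a group came from separate cultures. The p-values therefore speak to library-to-library spread, part or all of which can be technical.

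The mitochondrial genome is a small circle that mitochondria transcribe and translate themselves. Both strands are transcribed as long polycistronic RNAs, from a heavy-strand and a light-strand promoter, and the tRNAs that lie between the other genes are cut out to release mRNAs and rRNAs. The mRNAs encode core subunits of respiratory complexes I, III, IV and V, which work only when assembled with many subunits encoded in the nucleus, and complex II has no mitochondrially encoded subunit. The 2 rRNAs form the core of the mitochondrial ribosome.

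In GENCODE release 29 (GRCh38, chromosome M), each of the 37 genes is a single exon. The heavy-strand promoter gives 28 of them, annotated on the plus strand, and the light-strand promoter gives 9, on the minus strand: MT-ND6 and 8 tRNAs. MT-RNR1, the small-subunit rRNA, lies at 648 to 1601 and MT-RNR2, the large-subunit rRNA, at 1671 to 3229. MT-CO1 lies at 5904 to 7445, and MT-TS1, a serine tRNA on the opposite strand, begins at 7446 with 0 bases between them. The light-strand tRNA genes below held most of the tRNA counts, and their sequences are given with the anticodon in capitals (minus strand, GENCODE release 29).

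MT-TS1 (chrM:7446-7514): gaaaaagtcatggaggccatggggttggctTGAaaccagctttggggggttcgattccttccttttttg
MT-TY (chrM:5826-5891): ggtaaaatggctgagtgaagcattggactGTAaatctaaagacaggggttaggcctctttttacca
MT-TP (chrM:15956-16023): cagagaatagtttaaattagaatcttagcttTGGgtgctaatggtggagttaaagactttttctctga

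MT-TY carries tyrosine and MT-TP carries proline. Some mRNA genes overlap on the plus strand, so that a read over the shared bases belongs to both and can be set aside as ambiguous. MT-ATP8 and MT-ATP6, both subunits of ATP synthase (complex V), share 46 bases, and MT-ND4L and MT-ND4, both subunits of complex I, share 7. Those junctions are given with the shared bases in capitals and 24 bases on either side.

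MT-ATP8/MT-ATP6 (chrM:8503-8596): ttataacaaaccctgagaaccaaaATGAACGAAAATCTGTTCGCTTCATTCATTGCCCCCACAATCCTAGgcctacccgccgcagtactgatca
MT-ND4L/MT-ND4 (chrM:10736-10790): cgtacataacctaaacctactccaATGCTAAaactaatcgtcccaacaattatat

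The libraries held 8132206 to 14185252 counts on genes. UGT2B28, the targeted gene, had 1139, 1062 and 539 counts in the rescue libraries, 63, 70 and 28 in the knockdown libraries and 44, 50 and 76 in the controls. It was higher in rescue than in knockdown (log2 fold change 3.66, SE 0.332, adjusted p = 0.00126) and did not pass as lower in knockdown than in control (log2 fold change -0.04, SE 0.349, adjusted p = 0.957). The UGT2B genes resemble each other closely, and reads may be split among them. "Knockdown" below means the libraries labelled so, and every direction drawn from them carries that limit. Knockdown library 3 stood apart from the other two. Compared over all genes by chi-square, counts differed by 3.46 per degree of freedom for knockdown libraries 1 and 2, 62.0 and 66.4 for each of them against library 3, 7.70 to 9.47 among rescue libraries and 2.13 to 6.12 among controls. All 12 luminal prostate markers had counts, and the summed level was 5298 to 6441 CPM (counts per 1000000 of the TMM-scaled library) in rescue, 3559 to 6493 in knockdown and 4291 to 5432 in control. Summed immune markers reached at most 11.5 CPM, with LYZ and PTPRC at 0 in every library, endothelial markers 7.69 CPM and fibroblast markers 116 CPM. Of all these markers, TMPRSS2 alone passed in any comparison (rescue against knockdown, log2 fold change 0.64, adjusted p = 0.0402).

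Mitochondrially encoded RNA took the largest share of counts in the knockdown libraries. Of the counts on genes it made up 6.96%, 5.79% and 7.90% in rescue (libraries 1, 2 and 3 in that order, as below), 15.1%, 15.8% and 10.2% in knockdown, and 8.17%, 8.57% and 7.62% in control. The knockdown libraries all lay above the 6 others, and rescue and control overlapped. Counting error is small beside this spread, since the widest Wilson 95% interval spanned 0.0459 percentage points; such intervals cover counting error only. In bulk RNA, more mitochondrial RNA per cell and a change in which cells were sampled cannot be told apart.

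The 13 mRNAs and the 2 rRNAs did not keep the same order in all knockdown libraries. The mRNAs took 5.50%, 4.41% and 6.18% of counts on genes in the rescue libraries, 11.5%, 12.05% and 8.59% in the knockdown libraries, and 6.57%, 6.90% and 6.04% in the controls. The rRNAs took 1.21%, 1.13% and 1.40% in the rescue libraries, 3.11%, 3.21% and 1.28% in the knockdown libraries, and 1.29%, 1.32% and 1.25% in the controls. In knockdown library 3 the mRNA share was thus above every control and the rRNA share inside the control range. Within mitochondrial counts, rRNA made up 17.4%, 19.5% and 17.7% in rescue, 20.5%, 20.3% and 12.6% in knockdown, and 15.7%, 15.4% and 16.4% in control, so that knockdown library 3 had the lowest rRNA fraction of the 9 and its 2 companions the highest. The labels name total RNA and do not state whether polyadenylated RNA was selected or how cytosolic rRNA was removed.

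**Figure D1:**
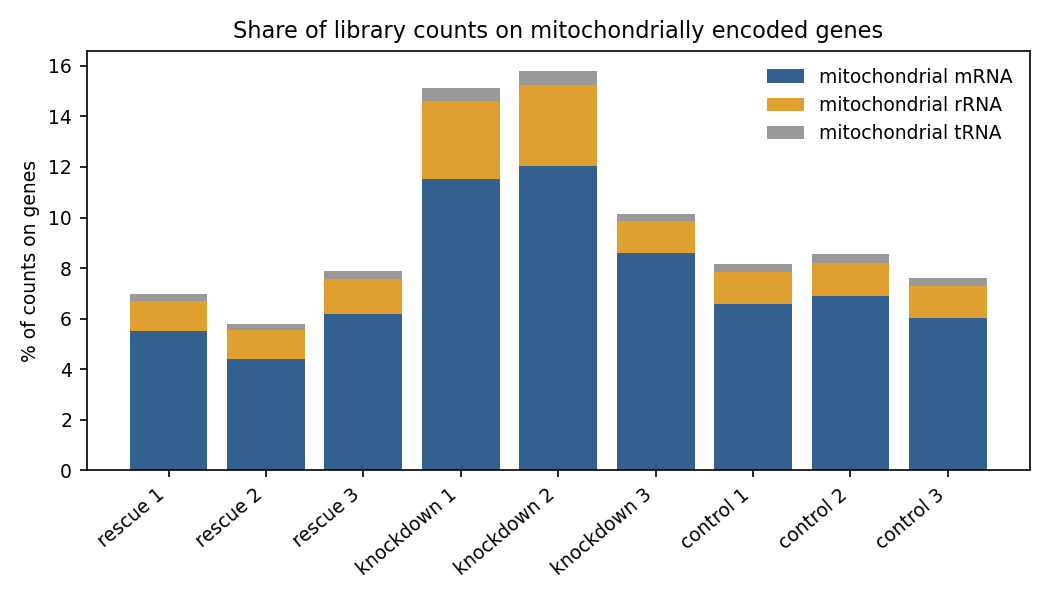
Stacked bars show the percentage of counts on genes that fell on mitochondrially encoded mRNA, rRNA and tRNA in each of the 9 libraries. The bars of knockdown libraries 1 and 2 reach 15.1% and 15.8%, against 5.79% to 7.90% in rescue and 7.62% to 8.57% in control libraries, and the bar of knockdown library 3 reaches 10.2%.

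Other features also set knockdown libraries 1 and 2 apart from the controls. In knockdown library 3 they lay on the other side of the control range, although its mitochondrial share was above every rescue and control library. Cytosolic ribosomal protein mRNAs took 6.94% to 7.91% of counts on genes in rescue, 11.98%, 11.5% and 6.66% in knockdown libraries 1, 2 and 3, and 8.08% to 8.35% in control. The TMM factors were 1.03 to 1.09 in rescue, 0.793, 0.800 and 1.11 in knockdown libraries 1, 2 and 3, and 1.04 to 1.06 in control. Counts outside any annotated feature were 46.3% to 48.7% of all rows in rescue, 43.7%, 45.1% and 48.6% in knockdown libraries 1, 2 and 3, and 46.3% to 47.7% in control. Their part in the mitochondrial shares was not tested.

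The mRNA pool was also divided by complex. Complex IV, which reduces oxygen and includes MT-CO1, MT-CO2 and MT-CO3, held 52.7% to 56.4% of mitochondrial mRNA counts in rescue, 51.1% to 58.7% in knockdown and 53.9% to 55.9% in control. The 7 subunits of complex I, the NADH dehydrogenase, held 30.3% to 33.7% in rescue, 29.1% to 34.7% in knockdown and 31.0% to 31.9% in control. The strand option of the counting is not stated, so MT-ND6 counts, here and below, may include RNA of the opposite strand. MT-CYB, the sole mitochondrially encoded subunit of complex III, held 5.61% to 6.32% in rescue, 5.53% to 6.49% in knockdown and 5.98% to 6.87% in control. Complex V held 7.04% to 7.57% in rescue, 6.68% to 7.75% in knockdown and 6.93% to 7.34% in control. For complexes I, III, IV and V the ranges of all 3 groups overlapped. Within knockdown, libraries 1 and 2 had 34.7% complex I and 51.1% complex IV each, while library 3 had 29.1% and 58.7%.

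Per kilobase of annotated length, MT-CO1 was the most abundant mRNA in every group, at 11490 CPM per kilobase in rescue, 26346 in knockdown and 13628 in control on average. MT-CO3 (8983), MT-CO2 (8740), MT-ATP6 (6550), MT-ND4 (5601), MT-ND3 (4321), MT-CYB (3542), MT-ND6 (3017), MT-ND1 (2464), MT-ND2 (2117), MT-ND5 (2062) and MT-ND4L (1232) followed in mean control CPM per kilobase, and MT-ATP8 was last at 31.8. In this order the neighbours MT-CO3 and MT-CO2, MT-ND3 and MT-CYB, MT-CYB and MT-ND6, and MT-ND2 and MT-ND5 overlapped between control libraries. MT-ATP8 is the shortest of the 13 mRNA genes, at 207 bases with 46 of them shared with MT-ATP6, as the junction printed above shows. It held 72, 82 and 75 counts in rescue, 119, 239 and 113 in knockdown and 66, 89 and 29 in control. MT-ATP6, with which it shares a transcript, held 32718 to 54135 counts in rescue, 47484 to 131058 in knockdown and 39060 to 46989 in control. The level printed for MT-ATP8 is that of counts assigned to it alone and need not be the level of that transcript. Reads over the shared bases can be set aside as ambiguous, and their part in the low level was not tested.

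**Figure D2:**
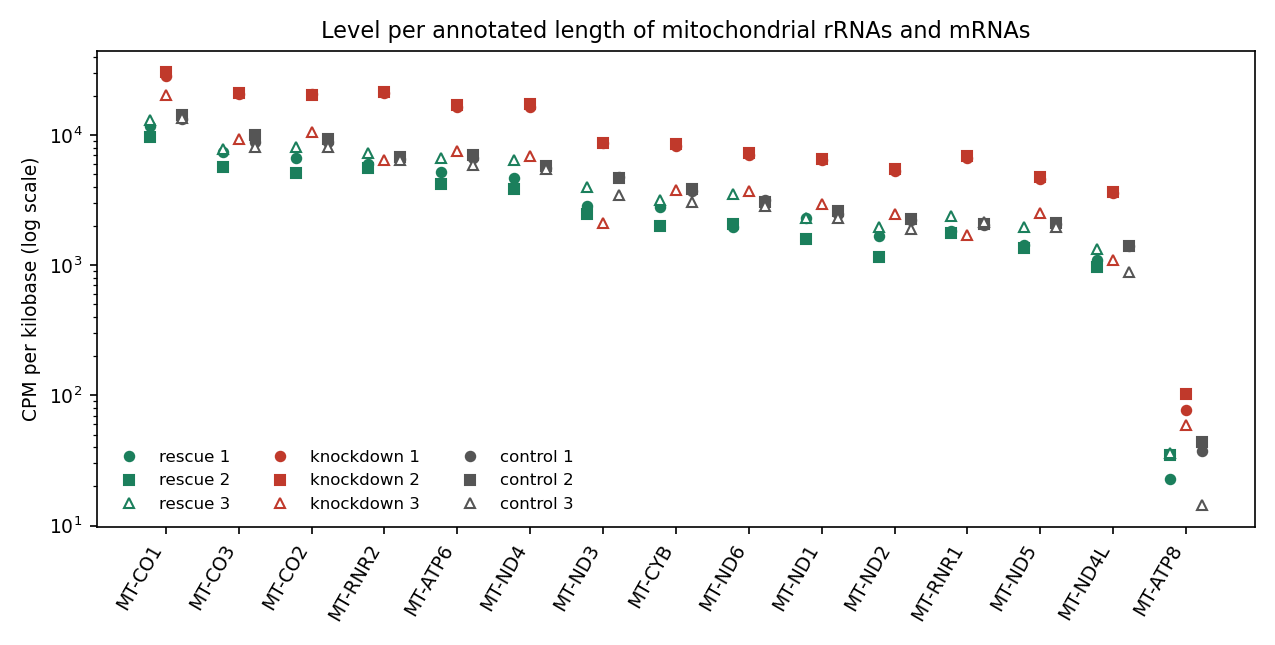
CPM per kilobase of annotated length, on a log scale, is plotted for the 13 mRNAs and 2 rRNAs, ordered by their control mean, with 1 point per library. Knockdown libraries 1 and 2 lie above all other libraries for each gene, and MT-ATP8 lies far below the rest in all 9 libraries, at 31.8 CPM per kilobase in control.

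The libraries labelled knockdown were compared with control, the contrast meant for loss of UGT2B28. All 13 mRNAs and both rRNAs were above every control library in knockdown libraries 1 and 2, whereas knockdown library 3 lay near the controls for most of them and below them for MT-ND3 and both rRNAs. None of the 22 tested mitochondrial genes passed (edgeR quasi-likelihood test, Benjamini-Hochberg adjusted p under 0.05), where 0.00595% of the 16796 genes tested passed. At an unadjusted p under 0.05 there were 17 of 22, beside 19.1% of all genes. The other 15 of the 37 genes, all tRNAs, had too few counts to test. The DESeq2 Wald test called 17 and limma-voom 0. All 22 log2 fold changes were positive, with a median of 1.01, where 51.4% of all genes were positive with a median of 0.02. In 11 of the 22 every knockdown library was above every control library, a pattern that 11% of all genes showed.

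MT-CO1, the catalytic subunit of complex IV, had 44086, 46725 and 31067 CPM in the knockdown libraries, against 20564, 21796 and 20682 CPM in the controls. It averaged 40626 ± 8383 CPM in knockdown and 21014 ± 680 CPM in control (SD, n = 3 each), and its groups did not overlap (log2 fold change 0.95, SE 0.243, adjusted p = 0.0970). MT-CO2 had 14109, 13839 and 7165 CPM in knockdown and 6007, 6384 and 5543 in control (log2 fold change 0.97, adjusted p = 0.114). For MT-CO2 the groups also stood apart, but library 3 was much nearer the controls than its companions. MT-CO3 had 16076, 16556 and 7273 CPM in knockdown and 6938, 7827 and 6362 in control, and library 3 fell inside the control range (log2 fold change 0.92, adjusted p = 0.146).

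The complex I mRNAs differed among themselves in library 3. MT-ND4 had 22700, 23809 and 9534 CPM in the knockdown libraries and 7670, 7976 and 7509 in the controls (log2 fold change 1.28, SE 0.333, adjusted p = 0.0993). MT-ND1, near the start of the heavy-strand unit, had 6157, 6271 and 2844 CPM in knockdown and 2378, 2481 and 2206 in control (log2 fold change 1.11, SE 0.286, adjusted p = 0.0970). For both genes all knockdown libraries exceeded all controls, as also for MT-ND2, MT-ND5 and MT-ND6, which is annotated to the light strand. MT-ND6 had 3711, 3814 and 1961 CPM in knockdown and 1657, 1605 and 1490 in control (log2 fold change 1.00, adjusted p = 0.114). MT-ND3 had 3012, 2987 and 733 CPM in knockdown and 1655, 1632 and 1199 in control (log2 fold change 0.59, SE 0.423, adjusted p = 0.489). Knockdown library 3 thus held less MT-ND3 than any control, and the first 2 libraries more than any. MT-ND4L had 1063, 1086 and 325 CPM in knockdown and 416, 416 and 265 in control (log2 fold change 1.17, adjusted p = 0.141), with library 3 inside the control range.

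MT-ATP6 had 11246, 11569 and 5167 CPM in knockdown and 4548, 4795 and 4037 in control (log2 fold change 1.06, adjusted p = 0.111). MT-CYB had 9437, 9785 and 4284 CPM in knockdown and 4273, 4361 and 3491 in control (log2 fold change 0.96, adjusted p = 0.140). The groups stood apart for MT-ATP6 and overlapped for MT-CYB. MT-RNR2 had 32873, 33518 and 9948 CPM in knockdown and 10222, 10554 and 10010 in control (log2 fold change 1.31, SE 0.383, adjusted p = 0.118). MT-RNR1 had 6375, 6625 and 1637 CPM in knockdown and 1954, 1992 and 2057 in control (log2 fold change 1.29, SE 0.406, adjusted p = 0.137). Relative to the control mean, the rRNAs had medians of 1.68, 1.72 and -0.17 on the log2 scale in knockdown libraries 1, 2 and 3, where the mRNAs had 1.24, 1.28 and 0.26.

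Relative to the control mean, the 13 mRNAs had a log2 standard deviation across genes of 0.169 and 0.222 in knockdown libraries 1 and 2 and of 0.459 in library 3. In library 3 the values ran downward through MT-ATP8 (1.05), MT-CO1 (0.56), MT-ND6 (0.31), MT-ND4 (0.31), MT-ND5 (0.29), MT-ND1 (0.27), MT-CO2 (0.26), MT-ND2 (0.22), MT-ATP6 (0.22), MT-CYB (0.09), MT-CO3 (0.05), MT-ND4L (-0.14) and MT-ND3 (-1.01). Apart from MT-ATP8, the shortest mRNAs, MT-ND4L and MT-ND3, were the lowest there. Across the 12 mRNAs without MT-ATP8, the correlation of this value with log2 length was 0.68 (Pearson; Spearman 0.58) in knockdown library 3. Pearson values ran between -0.26 and 0.16 in the other knockdown and the rescue libraries. MT-ATP8, the shortest mRNA and the highest in library 3, goes against that relation. No correlation over all 13 mRNAs was taken, so a dependence on length is not shown for the full set. These are descriptions across genes of 1 library each, and overlapping or co-transcribed genes are not independent points.

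**Figure D3:**
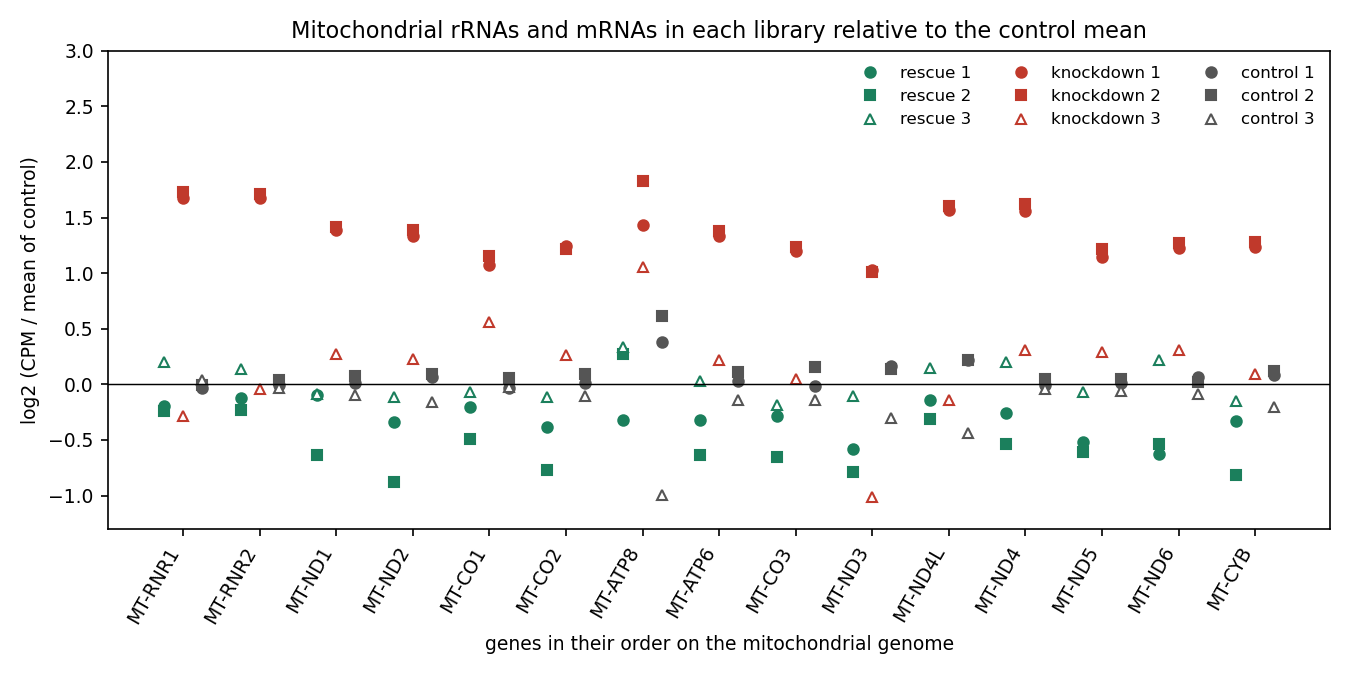
For each rRNA and mRNA, in genome order, the log2 ratio of CPM in 1 library to the mean of the 3 controls is plotted, with rescue, knockdown and control points side by side. Knockdown libraries 1 and 2 lie above 1 for every gene, knockdown library 3 runs between -1.01 for MT-ND3 and 1.05 for MT-ATP8, and most rescue points lie below 0.

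Without knockdown library 3, 20 of the 22 genes rose and 0 fell, with a median log2 fold change of 1.24, while 18.1% of the 17286 genes tested then rose. With library 3 as the only knockdown library, MT-CO1 (log2 fold change 0.54, adjusted p = 0.00964) and MT-TY (0.85, adjusted p = 0.00163) rose and MT-ND3 fell (-1.05, adjusted p = 0.00546), with a median over the 22 of 0.21. There the lone library was taken to vary like the libraries of the other groups, and 2.34% of 18530 genes rose and 9.07% fell.

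Rescue was compared with knockdown, the contrast for UGT2B28 overexpression on the knockdown background. Of the 22 tested genes, 16 fell in rescue and 0 rose, which is 72.7% of them, where 5.39% of all genes fell, 4.44% rose and 9.83% passed in either direction. They were 11 of 13 mRNAs, 1 of 2 rRNAs and 4 of 7 tested tRNAs. All 22 log2 fold changes were negative with a median of -1.36, where 50.3% of all genes were negative, 49.7% positive and their median was -0.0023. By complex, 5 of 7 genes of complex I, 1 of 1 of complex III, 3 of 3 of complex IV and 2 of 2 of complex V fell. In 15 of the 22, all rescue libraries lay below all knockdown libraries, a pattern of 14% of all genes. The comparison shares its 3 knockdown libraries with the one against control.

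MT-CO1 had 18248, 14919 and 19987 CPM in the rescue libraries, against 44086, 46725 and 31067 CPM in the knockdown libraries. It averaged 17718 ± 2575 CPM in rescue and 40626 ± 8383 CPM in knockdown (SD, n = 3 each), with a log2 fold change of -1.20 (SE 0.244, adjusted p = 0.0181), and the groups did not overlap. MT-ND5 had 2610, 2452 and 3558 CPM in rescue and 8270, 8674 and 4582 in knockdown (log2 fold change -1.32, SE 0.256, adjusted p = 0.0156). MT-ND2 had 1743, 1198 and 2036 CPM in rescue and 5532, 5740 and 2569 in knockdown (log2 fold change -1.48, SE 0.302, adjusted p = 0.0182). For each of these mRNAs knockdown library 3 was the lowest of its group and still above every rescue library. MT-ND1 fell by 1.36 on the log2 scale (adjusted p = 0.0199), MT-ND4 by 1.44 (adjusted p = 0.0261) and MT-CO2 by 1.37 (adjusted p = 0.0181). MT-ATP6 fell by 1.35 (adjusted p = 0.0235), MT-ATP8 by 1.36 (adjusted p = 0.0409), MT-CO3 by 1.28 (adjusted p = 0.0270) and MT-CYB by 1.37 (adjusted p = 0.0238). The only mRNA annotated to the light strand, MT-ND6, had 1026, 1094 and 1843 CPM in rescue and 3711, 3814 and 1961 in knockdown, and fell by 1.26 (adjusted p = 0.0245). Its counts cannot be told apart from RNA of the opposite strand.

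The short complex I mRNAs did not pass. MT-ND3 had 987, 854 and 1378 CPM in rescue and 3012, 2987 and 733 in knockdown (log2 fold change -1.06, SE 0.426, adjusted p = 0.133). MT-ND4L had 324, 289 and 398 CPM in rescue and 1063, 1086 and 325 in knockdown (log2 fold change -1.29, adjusted p = 0.0546). Knockdown library 3 lay below every rescue library for MT-ND3 and inside the rescue range for MT-ND4L. The rRNA MT-RNR2 had 9405, 8743 and 11285 CPM in rescue and 32873, 33518 and 9948 in knockdown, and passed by the fit although the groups overlapped (log2 fold change -1.37, SE 0.384, adjusted p = 0.0471). MT-RNR1 had 1745, 1689 and 2296 CPM in rescue and 6375, 6625 and 1637 in knockdown, with library 3 below every rescue library (log2 fold change -1.35, adjusted p = 0.0596).

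These calls rest on the spread shared by all 3 groups and on few libraries. A fit of rescue and knockdown libraries alone called 0 of the 22, DESeq2 called 21 and limma-voom 14. The count was 10 without control library 1 or 2 and 15 without control library 3. It was 3, 2 and 21 without knockdown library 1, 2 or 3, and 1, 2 and 4 without rescue library 1, 2 or 3. The share of all genes that fell moved as well: it was 2.60%, 2.44% and 3.24% without control library 1, 2 or 3, 1.35%, 0.558% and 20.4% without knockdown library 1, 2 or 3, and 0.249%, 0.753% and 0.649% without rescue library 1, 2 or 3. Against knockdown library 3 as the only knockdown library, 7 fell with a median log2 fold change of -0.49, where 6.84% of 18530 genes fell: MT-CO1, MT-CO2, MT-ND1, MT-ND2, MT-ND5, MT-TE and MT-TY. The direction was negative for all 22 under each single library left out.

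**Figure D4:**
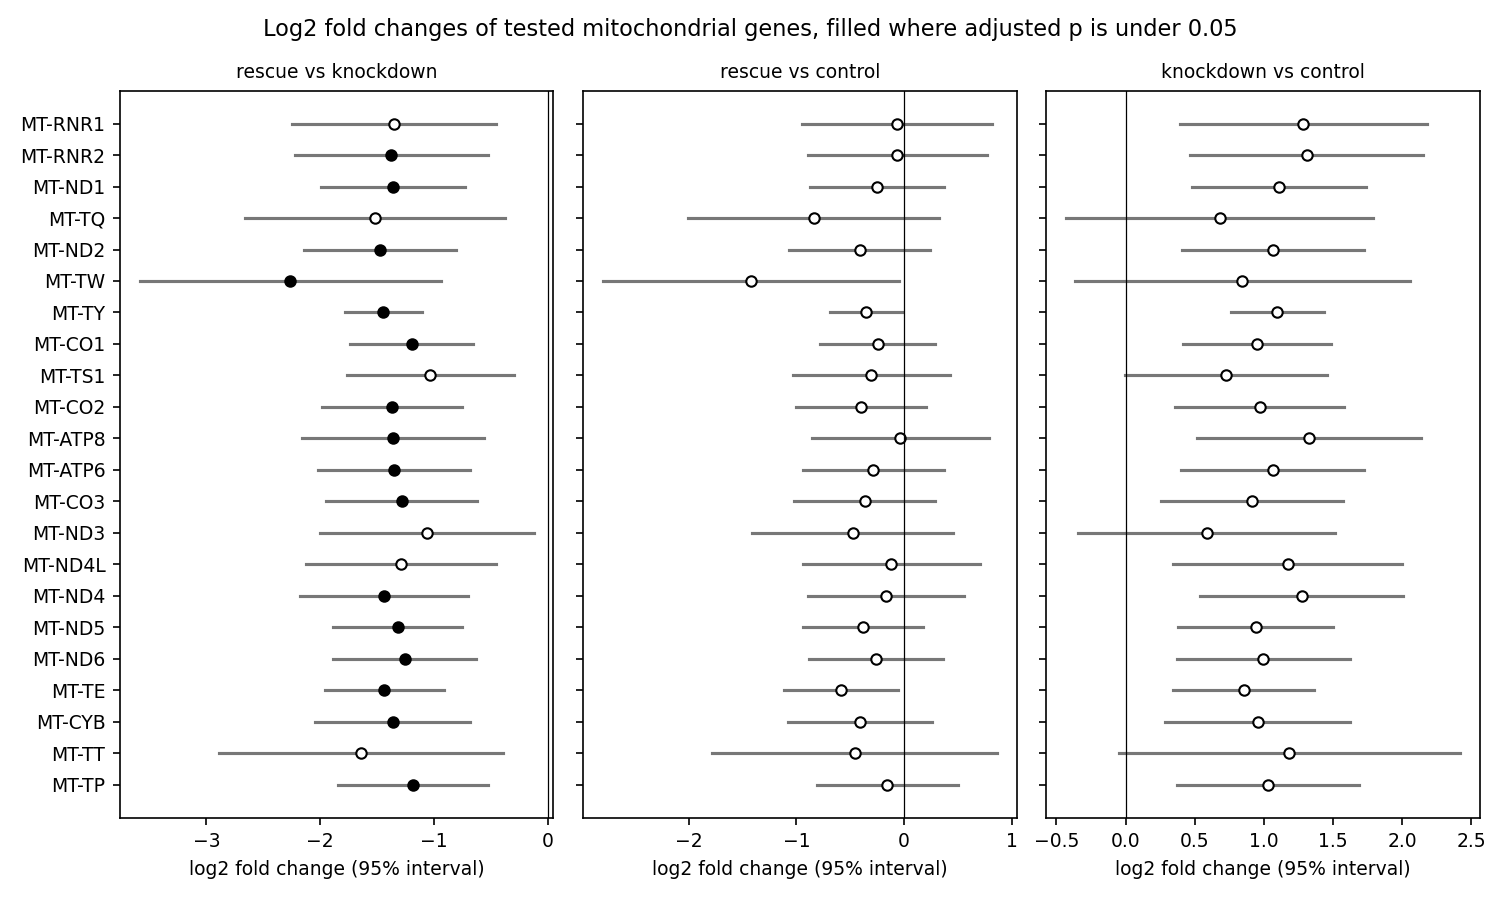
Log2 fold changes with 95% intervals are plotted for the 22 tested mitochondrial genes in genome order, for rescue against knockdown, rescue against control and knockdown against control, with filled points where the adjusted p was under 0.05. Of the 22, 16 are filled for rescue against knockdown, where all lie below 0, and 0 in the other comparisons, in which the medians are -0.33 for rescue against control and 1.01 for knockdown against control.

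Rescue was also set against control. None of the 22 genes passed in edgeR, DESeq2 or limma-voom, where 0.149% of all genes passed in edgeR and 0.143% passed as higher, and 3 of the 22 had an unadjusted p under 0.05, beside 10.5% of all genes. Each of the 22 was negative, with a median of -0.33 and a range of -1.42 to -0.03, where 51% of all genes were negative and 49% positive. In 5 of the 22, namely MT-CO1, MT-CO2, MT-CO3, MT-ND5 and MT-TE, all rescue libraries lay below all controls, a pattern of 13.6% of all genes. MT-CO2 had 4581, 3499 and 5504 CPM in rescue and 6007, 6384 and 5543 in control (log2 fold change -0.40, 95% interval -1.01 to 0.21). MT-ND5 had 2610, 2452 and 3558 CPM in rescue and 3775, 3853 and 3582 in control (log2 fold change -0.38, 95% interval -0.93 to 0.18). Rescue library 3 lay close to the controls for both. Set against the control mean, the 13 mRNAs had medians of -0.32 in rescue library 1, -0.64 in library 2 and -0.07 in library 3. The rRNAs stood nearer 0, with log2 fold changes of -0.07 for MT-RNR1 (95% interval -0.95 to 0.81) and -0.06 for MT-RNR2 (95% interval -0.90 to 0.77). Without knockdown library 3 in the fit, 5 fell (MT-CO2, MT-CO3, MT-CYB, MT-ND3 and MT-ND5), where 2.86% of 17286 genes fell.

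The tRNA counts lay mostly on genes annotated to the light strand. The 8 light-strand tRNA genes held 99.87% to 99.97% of mitochondrial tRNA counts, and 11 of the 14 heavy-strand tRNAs, with 2 of the light-strand ones, had 0 counts in all 9 libraries. A count of 0 allows up to 3 counts per library. No heavy-strand tRNA exceeded 20 counts in any library. Mature tRNAs are short and heavily modified. Each heavy-strand tRNA gene lies 0 or 1 base from a neighbour on its own strand, where MT-TS1 lies 1554 bases from one. Some light-strand tRNA genes, such as MT-TY and MT-TE, also lie 0 bases from such a neighbour. A read that spans 2 genes can be set aside as ambiguous. The part of this in the tRNA counts was not tested, and they do not measure tRNA levels by strand. MT-TS1 alone held 89.7% to 94.9% of the tRNA counts. Its gene is 69 bases long, and its 3′ end meets that of MT-CO1 on the other strand.

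**Figure D5:**
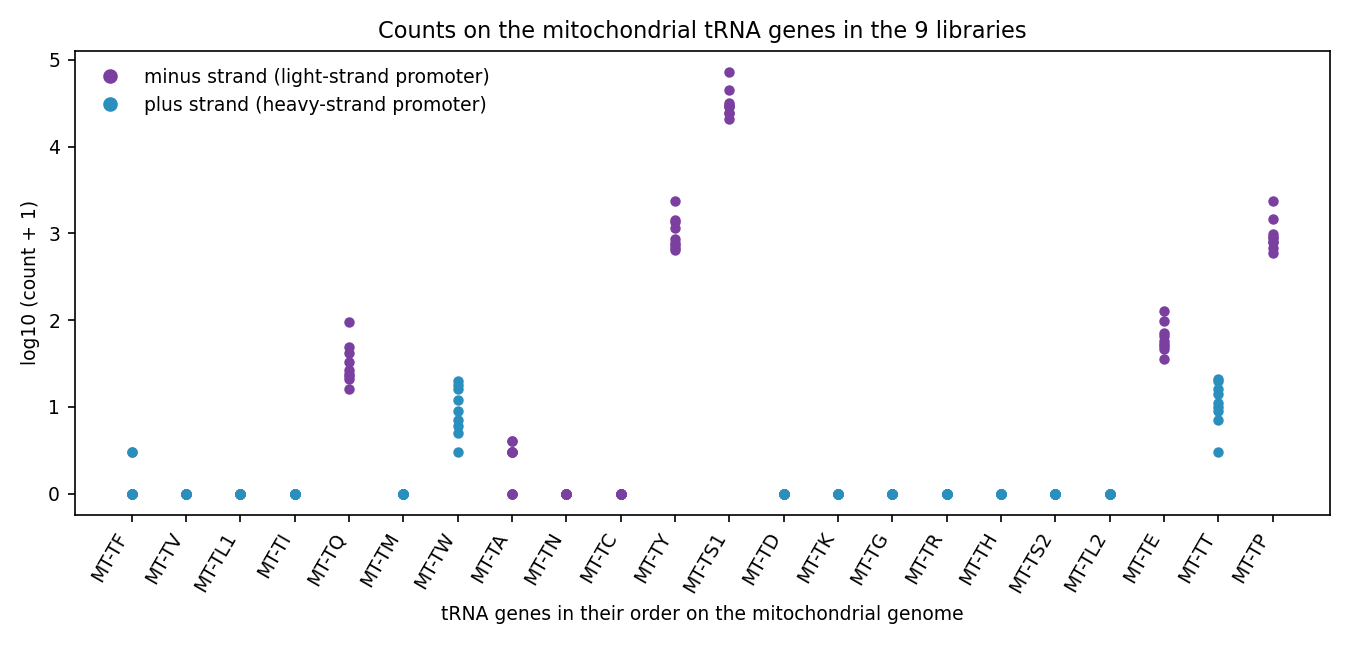
The log10 of counts plus 1 is plotted for the 22 mitochondrial tRNA genes in genome order, with 1 point per library and colours for the annotated strand. MT-TS1, MT-TY and MT-TP, all on the minus strand, hold the most counts, and 13 tRNA genes are at 0 in all 9 libraries.

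MT-TS1 had 2117, 2144 and 2968 CPM in rescue, 6106, 6444 and 2248 in knockdown and 2845, 3129 and 2952 in control. Per 100 counts of MT-CO1 there were 11.6, 14.4 and 14.8 counts of MT-TS1 in rescue, 13.9, 13.8 and 7.24 in knockdown and 13.8, 14.4 and 14.3 in control. Knockdown library 3 was the lowest of the 9 and rescue library 1 the next. Per base, MT-TS1 had 2.93 times the count density of MT-CO1, whereas MT-TY had 0.0967 times that of MT-CO1 and MT-TP 0.365 times that of MT-CYB. The strand option of the counting is not stated. Over 63 nuclear gene pairs, antisense density was 2.84 times that of the sense partner in the median. Reads of MT-TS1, MT-ND6, MT-TY, MT-TP, MT-TE and MT-TQ therefore cannot be told apart from RNA of the opposite strand.

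MT-TY had the smallest p of the 22 tested genes in knockdown against control and in rescue against knockdown. It had 76.8, 56.3 and 68.0 CPM in rescue, 182, 209 and 157 in knockdown and 91.3, 89.0 and 76.2 in control. Here knockdown library 3 stood with its companions, and the groups overlapped only between rescue and control. MT-TY fell in rescue against knockdown (log2 fold change -1.45, SE 0.154, adjusted p = 0.00380), at rank 6 of all 16796 genes by p. It did not pass in knockdown against control (log2 fold change 1.10, SE 0.153, adjusted p = 0.0602), at rank 3 by p. MT-TE, a glutamate tRNA, had 3.69, 3.06 and 4.87 CPM in rescue, 9.56, 11.2 and 10.6 in knockdown and 5.36, 5.31 and 6.67 in control, and fell in rescue against knockdown (log2 fold change -1.44, adjusted p = 0.00946). MT-TP had 59.2, 69.2 and 87.2 CPM in rescue, 196, 208 and 85.6 in knockdown and 69.6, 68.6 and 101 in control, and fell in rescue against knockdown (log2 fold change -1.18, adjusted p = 0.0349) with library 3 inside the rescue range. MT-TS1 (log2 fold change -1.03, adjusted p = 0.0736), MT-TQ (-1.52, adjusted p = 0.0875) and MT-TT (-1.64, adjusted p = 0.0895) did not pass there. MT-TW passed (-2.26, adjusted p = 0.0402) on 2 to 6 counts in rescue and 11 to 19 in knockdown; it is named because it passed, after its values were seen.

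Ratios between neighbouring transcripts need no scaling factor, and 4 were tested across the 3 groups with a two-sided exact permutation test of the between-group F over 1680 assignments, whose smallest possible p is 0.00357. MT-RNR1 per MT-RNR2, the rRNAs of 1 unit, was 0.186, 0.193 and 0.203 in rescue, 0.194, 0.198 and 0.165 in knockdown and 0.191, 0.189 and 0.205 in control (exact p = 0.686, adjusted p = 0.743). MT-RNR2 per MT-ND1, the rRNA against the mRNA that follows it, was 4.27, 5.79 and 5.08 in rescue, 5.34, 5.35 and 3.50 in knockdown and 4.298, 4.25 and 4.54 in control (exact p = 0.650, adjusted p = 0.743). The lowest value of both ratios was in knockdown library 3, and the groups overlapped. MT-CYB per MT-ND1, the last against the first heavy-strand mRNA, was 1.45, 1.51 and 1.64 in rescue, 1.53, 1.56 and 1.51 in knockdown and 1.80, 1.76 and 1.58 in control (exact p = 0.0857, adjusted p = 0.343). MT-ND6 per MT-ND5, which lie end to end on opposite strands, was 0.393, 0.446 and 0.518 in rescue, 0.449, 0.440 and 0.428 in knockdown and 0.439, 0.417 and 0.416 in control (exact p = 0.743, adjusted p = 0.743). For MT-CYB per MT-ND1 every knockdown value lay below every control value, and rescue overlapped both. None of the 4 passed after adjustment. With the strand option unstated, MT-ND6 per MT-ND5 is a ratio of counts on the annotated genes and does not measure the strands apart.

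The nuclear genes that transcribe, process and translate mitochondrial RNA were counted from a list of 82 genes, 80 of them tested. In rescue against knockdown 12 fell and 0 rose, which is 15.0% of them beside 5.39% of all genes, with a median log2 fold change of -0.24. Of the transcription and genome maintenance list, 7 of 22 fell, with the 5 smallest p in TEFM (-0.69, adjusted p = 0.0162), an elongation factor of the mitochondrial RNA polymerase, MTERF3 (-0.76, adjusted p = 0.0173), PRIMPOL (-0.80, adjusted p = 0.0207), SSBP1 (-0.64, adjusted p = 0.0298), the single-stranded DNA-binding protein, and MTERF1 (-0.84, adjusted p = 0.0332). Of the RNA processing and stability list, 3 of 33 fell. They were SLIRP (-0.83, adjusted p = 0.0149), which with LRPPRC stabilises mitochondrial mRNAs, FASTKD3 (-0.64, adjusted p = 0.0377) and the rRNA methyltransferase TFB1M (-0.66, adjusted p = 0.0425), which stands in both lists. The translation factors MRRF (-0.40, adjusted p = 0.0349), which recycles ribosomes, and MTIF3 (-1.03, adjusted p = 0.0468), an initiation factor, were 2 of 16, and GABPA (-0.64, adjusted p = 0.0127), a transcription factor of nuclear mitochondrial genes, 1 of 10 regulators. A fit of rescue and knockdown alone called 0 of the 80. Without knockdown library 3, 29 of 81 fell and 8 rose, where 20.4% of all genes fell and 18.6% rose. The count was 3 and 0 without knockdown library 1 or 2, 5 without any one of the controls, and 0, 2 and 1 without rescue library 1, 2 or 3, all of them lower in rescue. Those were 3.70% and 0%, 6.17%, 6.17% and 6.25%, and 0%, 2.50% and 1.23% of the list. Of all genes 1.35% and 0.558%, 2.60%, 2.44% and 3.24%, and 0.249%, 0.753% and 0.649% fell, in that order. Without control library 1, 2 or 3, 4.86%, 4.62% and 6.13% of all genes passed in either direction.

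In knockdown against control 0 of the 80 passed in edgeR, with 21.25% at an unadjusted p under 0.05 beside 19.1% of all genes, 4 called by DESeq2, 0 by limma-voom and a median log2 fold change of 0.10. The 2 members of smallest p per list were DGUOK (0.64, adjusted p = 0.152), a kinase of mitochondrial DNA precursors, and SSBP1 (0.45, adjusted p = 0.165); SLIRP (0.57, adjusted p = 0.107) and the helicase DHX30 (-0.36, adjusted p = 0.151). Among translation factors they were GFM2 (0.55, adjusted p = 0.0861), which recycles ribosomes, and the tRNA modifier GTPBP3 (-0.42, adjusted p = 0.120), and among regulators GABPB1 (0.35, adjusted p = 0.191) and GABPA (0.28, adjusted p = 0.227), subunits of 1 transcription factor. Leaving out knockdown library 3, 13 of 81 rose and 6 fell, or 23.5% in all, where 32.9% of all genes passed. In rescue against control 0 of the 80 passed in edgeR, with 10% at an unadjusted p under 0.05 beside 10.5% of all genes, 1 called by DESeq2, 0 by limma-voom and a median of -0.10. There TEFM stood at -0.55 (adjusted p = 0.151), MTERF3 at -0.42 (adjusted p = 0.357), FASTKD3 at -0.57 (adjusted p = 0.237) and the pseudouridine synthase TRUB2 at -0.39 (adjusted p = 0.292). The release factor MTRF1 stood at -0.32 (adjusted p = 0.655), the formyltransferase MTFMT at -0.31 (adjusted p = 0.657), GABPA at -0.36 (adjusted p = 0.284) and the coactivator PPARGC1B at -0.33 (adjusted p = 0.798). Leaving out knockdown library 3, 4 of 81 fell, where 2.86% of all genes fell.

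The nuclear-encoded subunits of the respiratory chain, partners of the mitochondrial mRNAs' products, numbered 79, all tested. In rescue against knockdown 15 fell and 0 rose, 19.0% of them beside 5.39% of all genes, with a median log2 fold change of -0.72 against -1.35 for the 13 mitochondrially encoded mRNAs. By complex, 5 of 37 fell in complex I, 1 of 4 in II, 1 of 9 in III, 2 of 11 in IV and 6 of 18 in V. The smallest p per complex were in NDUFB5 (-1.19, adjusted p = 0.0125), SDHD (-1.11, adjusted p = 0.0212), UQCRC2 (-0.39, adjusted p = 0.04998), COX6C (-1.13, adjusted p = 0.0361) and ATP5F1C (-0.87, adjusted p = 0.0234). A fit of the 2 groups alone called 0 and DESeq2 27. Without knockdown library 3, 67 fell and 1 rose, where 20.4% of all genes fell, and the median was -1.05. Against knockdown library 3 alone the direction turned round, with 24 higher in rescue, 1 lower and a median of 0.23, where 12.7% of all genes rose. The count was 1 and 0 without knockdown library 1 or 2, 4, 4 and 5 without control library 1, 2 or 3, and 0 without any one of the rescue libraries. Without knockdown library 1 it was 1.27% of the list, where 3.03% of all genes passed and 1.35% fell. Without control library 1, 2 or 3 it was 5.06%, 5.06% and 6.33%. Of all genes 4.86%, 4.62% and 6.13% then passed in either direction, and 2.60%, 2.44% and 3.24% fell. In knockdown against control 0 of 79 passed in edgeR, with 27.8% at an unadjusted p under 0.05 beside 19.1% of all genes, 5 called by DESeq2, 0 by limma-voom and a median of 0.51. Of the 79, 71 were positive, where 51.4% of all genes were. Without knockdown library 3, 65 rose and 1 fell with a median of 0.83, where 18.1% of all genes rose. With library 3 as the only knockdown library, 30 fell and 0 rose with a median of -0.43, where 9.07% of all genes fell. Without knockdown library 1 or 2, 0 passed and the medians were 0.29 and 0.32. NDUFB5 stood at 0.73 (adjusted p = 0.117), SDHD at 0.75 (adjusted p = 0.140), UQCRC2 at 0.28 (adjusted p = 0.209), COX6C at 0.91 (adjusted p = 0.138) and ATP5F1C at 0.71 (adjusted p = 0.103). In rescue against control 0 of 79 passed in edgeR, with 0 at an unadjusted p under 0.05, 0 called by DESeq2 or limma-voom and a median of -0.16, and without knockdown library 3, 7 fell, where 2.86% of all genes fell. The smallest p per complex were in NDUFA10 (-0.22, adjusted p = 0.480), SDHD (-0.36, adjusted p = 0.674), UQCRC1 (-0.22, adjusted p = 0.629), COX7C (-0.34, adjusted p = 0.707) and ATP5PF (-0.32, adjusted p = 0.658).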

How the data were processed

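Total RNA from LAPC4 cells was sequenced, and the authors deposited whole-number read counts per gene for 9 libraries, not normalized. The submitters' processing notes list the genome build hg38 and, as tools, STAR, HTSeq, cutadapt and FastQC, and state no version, setting, annotation or strand option. The 5 summary rows of each file (no feature, ambiguous, multiple alignments and others) stayed out of library sizes and tests. Groups came from the sample titles.

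Counts of 16796 genes went into one fit of all 9 libraries (R 4.3.3, edgeR 4.0.16, TMM scaling, filterByExpr with a minimum count of 10). The quasi-likelihood test gave each p, and "passed" means under 0.05 after Benjamini-Hochberg adjustment over those genes. A standard error is the log2 fold change over the square root of F. CPM are counts per 1000000 of the TMM-scaled library. Gene positions, lengths and sequences came from GENCODE release 29. All 13 mRNAs, both rRNAs and tRNAs with a mean of at least 10 counts were named; of the nuclear lists, the members that passed, at most 5 per machinery list by p, or the 2 of smallest p where none passed, and the 1 of smallest p per complex. The members and lists were chosen with earlier results of these data known. Depth of 8132206 to 14185252 counts on genes makes counting error small for mRNAs and rRNAs, and limits the rare tRNAs. On simulated counts with 100 genes changed 2-fold and 100 changed 4-fold, the fit recovered 48 and 91 for knockdown against control, 59 and 93 for rescue against knockdown, and 63 and 95 for rescue against control. DESeq2 1.42.0, limma-voom 3.58.1, other scalings and filters, a replicate block, fewer groups and each library left out were tried.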

Additional observations from a re-analysis of the deposited data

How the results depend on the processing

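Over the 22 mitochondrial genes and 3 comparisons, direction and call were kept throughout by DESeq2 size factors, scaling without mitochondrial rows and a filter of 1 CPM in 3 libraries. Genes that passed are given as counts, to be read beside the share of all genes that passed under the same setting. Without knockdown library 3 that share was 32.9% in knockdown against control, 39.0% in rescue against knockdown and 7.38% in rescue against control. With only the groups compared it was 0%, 0.0426% and 5.87%, in that order. In the last, 3.75% of the machinery list and 1.28% of the nuclear subunits passed. For DESeq2 and no filter the share is not given here. In knockdown against control, none passed in the fit reported. Library size alone gave 2 mitochondrial genes, no filter 18 and DESeq2 17. Leaving out single libraries gave 0 to 20 (20 without knockdown library 3), and leaving out knockdown replicates 1 and 2 gave 3. The machinery list gave 4 without a filter, 4 by DESeq2, 0 to 19 with single libraries left out and 7 without knockdown replicates 1 and 2. The nuclear subunits gave 37, 5, 0 to 66 and 30 under those settings; the 30 all fell, against a positive median in the fit reported. In rescue against knockdown, 16 mitochondrial genes became 0 with only the groups compared, 1 to 21 with single libraries left out and 7 without knockdown replicates 1 and 2. The 12 machinery genes became 4 by library size alone, 19 by DESeq2, 0 with only the groups compared, 0 to 37 and 23. The 15 nuclear subunits became 53 without a filter, 27 by DESeq2, 9 by limma-voom, 0 with only the groups compared, 0 to 68, and 25 of which 24 rose, the reverse of the fit reported. In rescue against control, 0 mitochondrial genes became 0 to 5 with single libraries left out. Machinery gave 1 by DESeq2, 3 with only the groups compared, 0 to 4 and 3; nuclear subunits gave 1 with only the groups compared, 0 to 7 and 1. Fewer libraries leave fewer residual degrees of freedom; beyond that the cause was not tested. Library size alone moved the median of all genes to -0.21 in knockdown against control and 0.24 in rescue against knockdown, where the mitochondrial medians were 0.72 and -1.04.

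Same-numbered libraries of different groups deviated with correlations of -0.35 to 0.08, and not every library correlated best with its own number. The labels give such libraries no more than a number in common. With few libraries per group, these correlations cannot show whether a batch or culture was shared. With that number as a replicate block, rescue against knockdown called 2 mitochondrial, 3 machinery and 1 nuclear subunit gene, all lower in rescue. These were 9.09%, 3.75% and 1.27% of their lists, where 2.63% of all genes passed and 1.30% fell. In rescue against control MT-ATP8 turned to 0.050 with that block, and the counts of 0 in the other comparisons remained 0.

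Without knockdown replicates 1 and 2, log2 fold changes reversed in knockdown against control for MT-RNR1 (-0.32), MT-RNR2 (-0.071), MT-TQ (-1.09), MT-TS1 (-0.43), MT-ND3 (-1.05) and MT-ND4L (-0.20), and in rescue against knockdown for MT-RNR1 (0.25), MT-RNR2 (0.00357), MT-TQ (0.24), MT-TS1 (0.12), MT-ND3 (0.57) and MT-ND4L (0.076). In rescue against control, MT-ATP8 reversed by limma-voom (0.063), and ranges with single libraries left out crossed 0 for MT-ATP8 (-0.39 to 0.28), MT-RNR1 (-0.21 to 0.013), MT-RNR2 (-0.17 to 0.011) and MT-TP (-0.31 to 0.053).

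With all counted reads as denominator, the mean mitochondrial share was 2.71% in rescue, 5.87% in knockdown and 3.37% in control; per 100 nuclear counts it was 7.40 in rescue, 15.97 in knockdown and 8.84 in control. Per kilobase, MT-ND6 made up 4.97% of mRNA in rescue, 4.91% in knockdown and 4.85% in control, rRNA 14.3% of rRNA and mRNA in rescue, 13.9% in knockdown and 12.3% in control, and complex I 33.7% of mRNA in rescue, 33.6% in knockdown and 33.4% in control. The ratio tests kept their side of the threshold after adjustment.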

Other observations

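Nuclear copies of mitochondrial sequence, pseudogenes left by past transfers, also held counts. Of 394 such pseudogene rows, 94 had counts and 10 a mean of at least 10. Together they came to 0.471%, 0.489% and 0.449% of the mitochondrial count in rescue, 0.428%, 0.404% and 0.880% in knockdown and 0.470%, 0.461% and 0.281% in control. MTATP6P1 had the most, with 3048, 1785 and 2093 counts in rescue, 4251, 6366 and 4625 in knockdown and 2093, 2423 and 1283 in control.

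Counts of 6 pseudogenes were also taken per 1000 counts of the mitochondrial gene each resembles. Knockdown library 3 was the highest of the 9 libraries for 5 of them, and rescue library 3 for MTCO1P12, which had 3.67, 4.70 and 5.02 per 1000 MT-CO1 counts in rescue, 3.95, 3.61 and 4.88 in knockdown and 4.03, 3.79 and 2.61 in control. MTATP6P1 had 56.3, 54.6 and 45.8 per 1000 MT-ATP6 counts in rescue, 50.9, 48.6 and 97.4 in knockdown and 53.6, 51.6 and 32.6 in control. MTCO2P12 had 1.22, 1.00 and 0.650 per 1000 MT-CO2 counts in rescue, 0.878, 0.791 and 5.44 in knockdown and 1.10, 1.18 and 0.463 in control. MTCO3P12 had 0.755, 1.02 and 0.901 per 1000 MT-CO3 counts in rescue, 0.837, 0.661 and 5.55 in knockdown and 1.11, 0.652 and 0.403 in control. The pseudogenes named here were chosen after their values were seen. Of the 100-base windows of MT-CO1, 27.9% occur unchanged in a nuclear pseudogene, as do 26.1% of those of MT-ND2, 11.9% of MT-ATP6, 11.0% of MT-ND1, 4.38% of MT-CO3 and 2.39% of MT-CO2, and 0 of the other mRNAs and the rRNAs. Only annotated transcripts were searched, not the whole nuclear genome, so a value of 0 does not exclude other nuclear copies. A read lying within such a window can align to more than 1 place. The levels of these 6 genes are uncertain by that part, which was not measured.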
